A study of Homo sapiens with 6 samples.

Results

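Serpins are a family of proteins that share 1 fold, in which most members trap a protease by offering it a flexible loop as bait. The loop is cut, the protease stays bound to the distorted inhibitor, and each inhibitor molecule is used up by a single encounter. In the liver the family is best known for the secreted plasma inhibitors made by hepatocytes, such as antitrypsin and antithrombin, whereas the clade B members mostly stay inside the cell, and a few members (a collagen chaperone, hormone carriers, maspin) are not protease inhibitors at all.

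The members were all genes of the deposited table whose symbol is SERPIN followed by a clade letter from A to I and a number, which excludes pseudogenes and antisense RNAs. They were 27 of the 33007 genes in the table, and their levels were measured by RNA-seq in LM3 cells, an established human hepatocellular carcinoma (HCC) cell line. The control group was 3 vector control samples and the knockdown group was 3 samples with stable ZNF706 knockdown. All 6 samples are labelled with the genotype WT, and the study's methods describe lentiviral pLKO.1 hairpins and puromycin selection, so the cells of either group are selected populations of a single line. The labels do not say which hairpin was used, nor whether the 3 samples of a group were separate cultures, so the p-values measure only the spread between these samples. The total counts were 62684076, 64713764 and 63054445 in control cells and 68548419, 65861994 and 69057423 in knockdown cells. Every knockdown sample was therefore deeper than every control sample, and counts were compared only after scaling to library size.

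The targeted gene was checked first. ZNF706 had a level of 53.9 ± 1.76 CPM (the count relative to the TMM-scaled library size, mean ± SD, n = 3) in control cells and 32.4 ± 1.39 CPM in knockdown cells, which is -0.73 as log2 fold change (SE, standard error, 0.050, adjusted p = 3.7e-05, edgeR). The label of the cell line was checked against marker genes. The simple epithelial keratins KRT8 and KRT18 stood at 193 and 271 FPKM (a level per gene length and library size) in control cells. The other epithelial markers were low, with KRT19 at 0.463, EPCAM at 0.127 and CDH1 at 0.293 FPKM, and by the criteria of the study (an unadjusted p below 0.05 and a log2 change of at least 0.3) KRT19 and CDH1 were higher in knockdown cells. ALB, the albumin gene, stood at 2.63 FPKM and was the most abundant of the 10 hepatocyte markers in the list. The LM3 samples therefore hold little RNA of the plasma protein genes that define a hepatocyte. PTPRC, which marks leukocytes, had a mean of 0.0067 FPKM in control cells and was at 0 in knockdown cells. The hepatoma markers AFP and GPC3 stood at 0.787 and 0.467 FPKM in control cells, but these means hide a wide spread. AFP had 0.30, 0.97 and 1.09 FPKM in control cells and 0.75, 0.65 and 0.12 FPKM in knockdown cells. GPC3 had 0.03, 0.57 and 0.80 FPKM beside 0.56, 0.46 and 0 FPKM, and ALB had 0.77, 3.54 and 3.57 FPKM beside 2.17, 2.45 and 0.50 FPKM. Control replicate 1 and knockdown replicate 3 were thus the lowest of their groups for AFP, GPC3 and ALB, and the cause was not tested. The endothelial markers CDH5, PECAM1 and VWF stood at 1.25, 0.667 and 0.0033 FPKM in control cells. A few genes used as markers of other cell types were called, namely PDGFRB (0.653 to 1.08 FPKM), COL1A1 (7.05 to 8.40 FPKM) and CD68 (10.6 to 17.1 FPKM) as higher and CDH5 (1.25 to 0.793 FPKM) as lower, and their part in the serpin results was not tested. In bulk samples such as these, fewer cells of a type and less RNA per cell cannot be told apart.

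Of the 27 serpin genes, 19 had enough counts to be tested. At an adjusted p below 0.05 (edgeR's quasi-likelihood test, Benjamini-Hochberg adjustment over all 18390 genes tested), 4 were higher in ZNF706 knockdown cells and 5 were lower. Of all genes tested, 10.4% were higher and 12.4% lower by the same rule, which is 1906 and 2286 genes, but scaling by library size alone gave 2742 higher and 1518 lower. The genes that rose included SERPINE2, SERPINH1 and SERPINB6, and the genes that fell were SERPINB3, SERPINB4, SERPINA1, SERPINB1 and SERPINB8. The median log2 fold change of the 19 serpins was -0.10, beside 0.0095 for all genes tested, with 8 serpins above 0 and 11 below. Large changes in both directions stood within the family. By the criteria of the study, taken here as an unadjusted p below 0.05 with a change of 0.3 or more on the log2 scale, 4 serpins were higher and 3 lower, beside 9.61% and 5.88% of all genes. Under these criteria SERPINB7 joined the higher genes, and SERPINB6, SERPINB1 and SERPINB8 dropped out because their changes were small. On the CPM scale, the control and knockdown values did not overlap for 11 of the 19 serpins, beside 39.4% of all genes tested. For 1 gene on its own, the smallest two-sided p that exact permutation of 3 and 3 samples allows is 0.1.

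**Figure D1:**
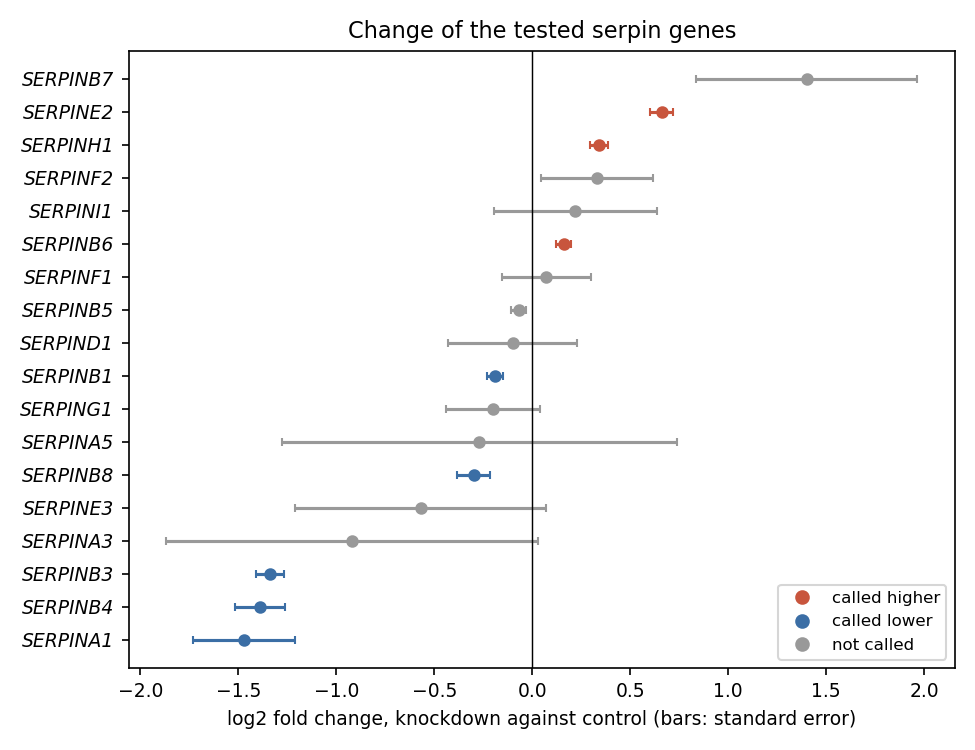
Log2 fold change (knockdown against control) of the tested serpin genes described in the text, with the SE as bars and the call at an adjusted p below 0.05 as colour. SERPINE2 (0.66) lies near the upper end, and SERPINB3 (-1.34), SERPINB4 (-1.39) and SERPINA1 (-1.47) lie at the lower end.

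The levels differed widely between members. Per gene length, the intracellular serpins dominated, with SERPINB1 (39.9 ± 0.885 FPKM, SD, n = 3), SERPINB5 (26.4 ± 0.754 FPKM), SERPINB3 (24.5 ± 1.5 FPKM) and SERPINB6 (16.7 ± 0.234 FPKM) as the 4 most abundant in control cells. SERPINH1 followed at 12.9 ± 0.215 FPKM. The FPKM values of all 27 serpins summed to 142.3, 146.0 and 141.1 in control cells and to 145.4, 147.7 and 153.6 in knockdown cells, so these sums overlapped between the groups. The make-up of that sum differed between them. SERPINB3 held 16.2% to 17.7% of it in control cells and 6.2% to 7.4% in knockdown cells, which took it from rank 3 to rank 6 in the family. SERPINB1 held 27.1% to 28.9% in control cells and 23.7% to 24.7% after knockdown.

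**Figure D2:**
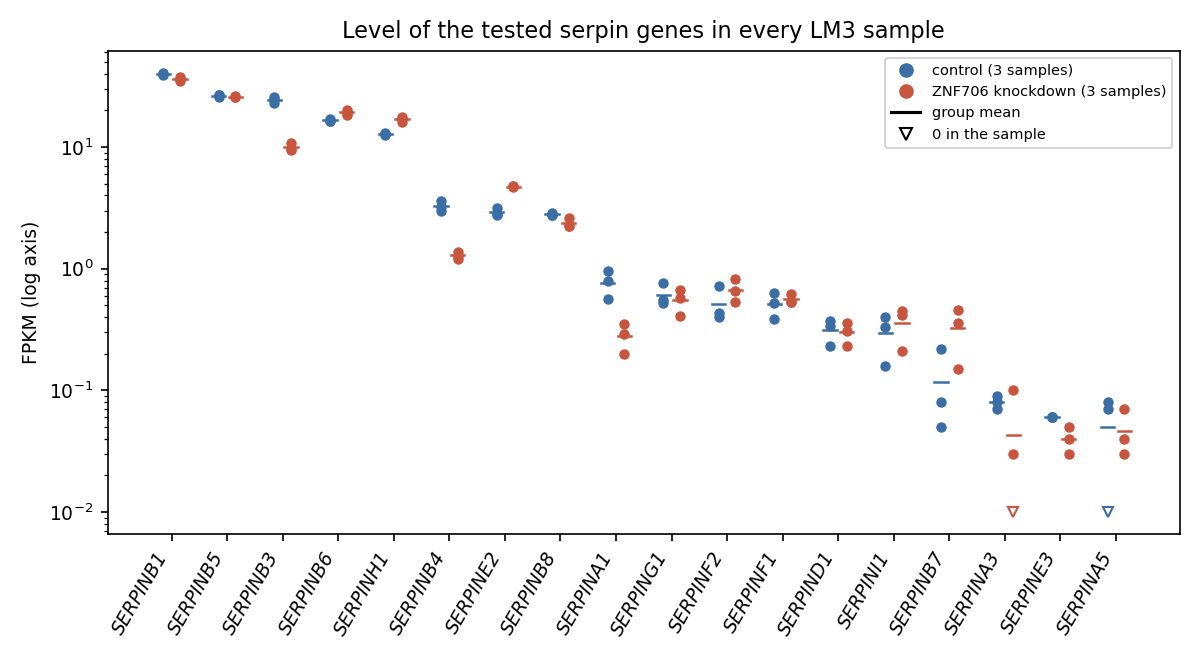
FPKM (log axis) of the tested serpin genes described in the text in the 3 control and 3 knockdown samples, with the group means as short lines and values of 0 as open triangles. The genes run from SERPINB1, at 39.9 FPKM, to SERPINA5 at 0.05 FPKM, and the groups stand clearly apart for SERPINB3, SERPINB4, SERPINE2 and SERPINA1.

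Clade E holds inhibitors of plasminogen activators and thrombin. SERPINE2 (ENSG00000135919, chromosome 2, 223975045 to 224039290, minus strand, GRCh38) encodes protease nexin 1, an inhibitor of thrombin and urokinase that sits at the cell surface and in the matrix. It had 29.03, 28.70 and 32.96 CPM in control cells and 48.15, 47.61 and 47.11 CPM in knockdown cells. The knockdown samples lay close together and all above the controls. The rise was 1.58-fold, a log2 fold change of 0.66 (SE 0.0603, adjusted p = 0.00012, edgeR). SERPINE2 was called in all 14 alternative fits, with log2 fold changes from 0.56 to 0.72. SERPINE3, a little studied member, had 7 to 12 counts in each sample, and its 3 knockdown values on the CPM scale lay below its 3 control values (log2 fold change -0.57, SE 0.642, adjusted p = 0.59, edgeR). It overlaps INTS6 on the opposite strand, which had 4186 to 5337 counts, and whether the counting used strand is not given in the sources used here.

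SERPINH1 (ENSG00000149257, chromosome 11, 75562056 to 75572783, plus strand) encodes HSP47, a chaperone of the endoplasmic reticulum that binds the collagen triple helix and inhibits no protease. Its levels were 91.5, 95.5 and 94.9 CPM in control cells and 113.0, 119.0 and 125.3 CPM in knockdown cells. The groups did not overlap, and the step between them was wider than the spread within either. SERPINH1 rose 1.27-fold, with a log2 fold change of 0.34 (SE 0.0436, adjusted p = 0.00063, edgeR), and was called in all 14 alternative fits.

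HSP47 is known as a heat shock protein, and its promoter is shown for this reason. The 250 bases before an annotated start of SERPINH1 (RefSeq, GRCh38.p14, chr11:75562003-75562252, plus strand, 5′ to 3′) hold 2 overlapping matches to the heat shock element, searched on both strands as GAANNTTC or TTCNNGAA. They begin 76 and 71 bases before the start and are in capitals.
SERPINH1: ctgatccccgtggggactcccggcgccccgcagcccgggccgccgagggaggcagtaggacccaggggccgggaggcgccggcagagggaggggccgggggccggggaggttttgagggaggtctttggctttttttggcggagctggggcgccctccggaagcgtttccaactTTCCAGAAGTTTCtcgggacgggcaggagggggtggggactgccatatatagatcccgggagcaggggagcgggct
Of 35093 promoter windows of this length in the table, 11.6% hold a match to the heat shock element. A match is a description of the letters and not a bound site, and no match was found before the other annotated start of SERPINH1.

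**Figure D3:**
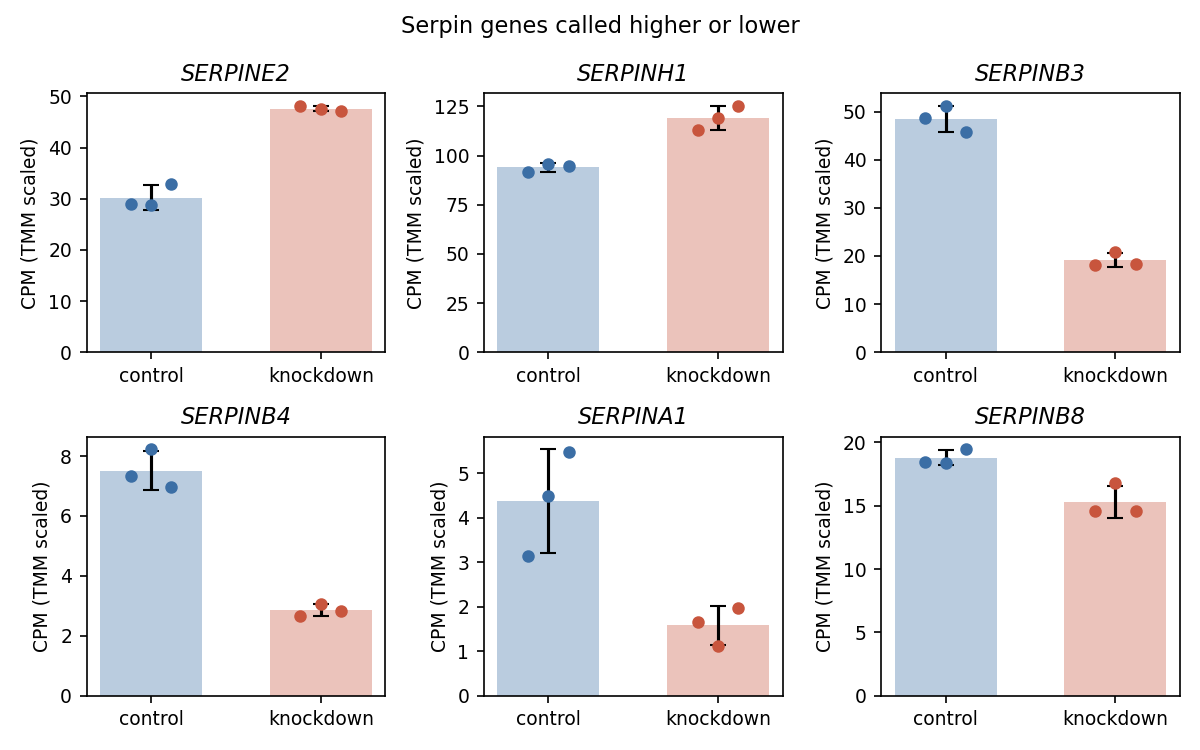
CPM (TMM scaled) of 6 serpin genes that were called higher or lower, in linear panels that start at 0, with the samples as points, the group mean as a bar and the SD as an error bar. SERPINE2 and SERPINH1 were higher in all 3 knockdown samples than in any control sample, and SERPINB3, SERPINB4, SERPINA1 and SERPINB8 were lower in all 3.

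Clade B serpins act mainly in the cytosol and nucleus, where they are held to protect the cell from its own or foreign proteases. Of 9 members in the table, 7 were tested, 4 fell and 1 rose, or 71.4% called beside 22.8% of all genes tested. SERPINB3 and SERPINB4 encode the squamous cell carcinoma antigens 1 and 2, which inhibit lysosomal cysteine proteases such as cathepsin L and chymotrypsin-like serine proteases, respectively. SERPINB3 (ENSG00000057149, chromosome 18, 63655197 to 63661893, minus strand) had 48.7, 51.2 and 45.7 CPM in control cells and 18.2, 20.8 and 18.4 CPM in knockdown cells. SERPINB4 (ENSG00000206073, chromosome 18, 63637259 to 63644256, minus strand) had 7.35, 8.22 and 6.97 CPM in control cells and 2.665, 3.069 and 2.842 CPM in knockdown cells. No knockdown sample of either gene came near a control sample. SERPINB3 fell 2.54-fold (log2 fold change -1.34, SE 0.0705, adjusted p = 1.3e-05, edgeR) and SERPINB4 fell 2.63-fold (log2 fold change -1.39, SE 0.130, adjusted p = 0.00013, edgeR). Both were called in all 14 alternative fits.

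The SERPINB3 and SERPINB4 genes are close copies, and their values are not fully independent. Their longest coding transcripts in GENCODE release 29 were identical at 95.7% of 1749 aligned bases, and 23.9% of the 50-base words of the SERPINB3 transcript also stand in that of SERPINB4, so reads from these stretches fit either gene. The ratio of SERPINB3 to SERPINB4 counts was 6.62, 6.22 and 6.56 in control cells and 6.84, 6.77 and 6.46 in knockdown cells, which overlap. How the authors' counting treated reads that fit both genes is not given in the sources used here, and the split between the pair is therefore uncertain. SERPINB3 lies entirely within SERPINB11 on the opposite strand, and SERPINB11 had no count in 5 samples and 3 in knockdown replicate 3.

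The copies extend into the promoters, which are shown because these genes moved together. The 250 bases before the annotated starts (RefSeq, GRCh38.p14, both on the minus strand, written 5′ to 3′) were chr18:63661894-63662143 for SERPINB3 and chr18:63644257-63644506 for SERPINB4. They were identical at 247 of 250 bases, and capitals mark the 3 bases that differ, which lie 125, 50 and 23 bases before the start.
SERPINB3: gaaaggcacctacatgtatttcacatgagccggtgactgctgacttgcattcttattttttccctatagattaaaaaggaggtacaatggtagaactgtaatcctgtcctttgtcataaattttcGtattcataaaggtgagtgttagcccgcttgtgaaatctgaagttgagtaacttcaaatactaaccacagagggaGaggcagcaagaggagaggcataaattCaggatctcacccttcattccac
SERPINB4: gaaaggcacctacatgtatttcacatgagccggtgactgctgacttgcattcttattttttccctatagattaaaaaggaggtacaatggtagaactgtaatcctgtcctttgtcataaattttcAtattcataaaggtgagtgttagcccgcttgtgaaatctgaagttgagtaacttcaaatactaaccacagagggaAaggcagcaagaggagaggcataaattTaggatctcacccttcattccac
Neither window held the E-box CACGTG, the heat shock element, the AP-1 motif (TGACTCA or TGAGTCA) or the SMAD motif CAGACA on either strand. These motifs are in 6.34%, 11.6%, 4.2% and 13.6% of the 35093 windows in that order, and a window without them says nothing about the factors. Promoters of 21 of the 27 members matched the table, and those not matched included SERPINB11, SERPINC1, SERPINF1, SERPINF2 and SERPING1.

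The other abundant clade B members moved little. SERPINB1, the leukocyte elastase inhibitor, was the most abundant serpin in both groups and fell by 12.2%, from 140.8 ± 4.37 to 123.6 ± 5.03 CPM (SD, n = 3). Its control values were 136.9, 139.9 and 145.5 CPM and its knockdown values 122.8, 119.1 and 129.0 CPM, a log2 fold change of -0.19 (SE 0.0412, adjusted p = 0.0098, edgeR). SERPINB6, a cytosolic inhibitor of trypsin-like proteases and cathepsin G, rose 1.12-fold. It had 250.3, 258.9 and 255.3 CPM in control cells and 272.8, 283.0 and 299.3 CPM in knockdown cells (log2 fold change 0.16, SE 0.0393, adjusted p = 0.016, edgeR). SERPINB8, which inhibits furin in the test tube, had 18.5, 18.4 and 19.5 CPM in control cells and 14.6, 16.8 and 14.6 CPM in knockdown cells (log2 fold change -0.30, SE 0.0852, adjusted p = 0.033, edgeR). The groups did not overlap for any of these genes, but their calls depended on single samples. SERPINB1 was not called without knockdown replicate 2 (adjusted p = 0.057), and SERPINB6 was not called without control replicate 1 (0.064), control replicate 3 (0.054) or knockdown replicate 2 (0.054). SERPINB8 was called in only 1 of the 6 fits with a sample left out, that without knockdown replicate 2 (adjusted p = 0.028), and reached an adjusted p of up to 0.10 in the others (edgeR).

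SERPINB5 encodes maspin, a serpin without inhibitory action that is studied as a suppressor of tumour invasion. It was the second most abundant member in control cells, with 110.0, 115.5 and 118.3 CPM beside 109.2, 108.7 and 109.0 CPM in knockdown cells. On the CPM scale the groups did not overlap, by a narrow margin. Their FPKM values did overlap, at 25.57, 26.63 and 27.03 in control cells and 26.06, 25.97 and 25.92 in knockdown cells. The log2 fold change was -0.07 (SE 0.0371, adjusted p = 0.20, edgeR), and it ranged from -0.10 to -0.02 over the 14 alternative fits, none of which called it. SERPINB7, or megsin, was scarce, with 41, 11 and 16 counts in control cells and 75, 31 and 96 in knockdown cells. Control replicate 1 lay above knockdown replicate 2, so the groups overlapped. The log2 fold change was 1.40 (SE 0.564, adjusted p = 0.11, edgeR), and it was called only without control replicate 1 (log2 fold change 2.15, adjusted p = 0.031). SERPINB9, the inhibitor of granzyme B, had 0 to 22 counts and was not tested.

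Clade A holds antitrypsin and its relatives, which hepatocytes secrete into plasma. SERPINA1 (ENSG00000197249, chromosome 14, 94376747 to 94390693, minus strand) encodes antitrypsin, the main plasma inhibitor of neutrophil elastase. It was scarce in LM3 cells, at 0.767 ± 0.196 FPKM in control cells (SD, n = 3). It had 195, 286 and 336 counts in control cells and 116, 75 and 138 in knockdown cells, or 3.15, 4.50 and 5.47 CPM beside 1.65, 1.12 and 1.97 CPM. All knockdown values lay below all control values, and the latter were spread widely. SERPINA1 fell 2.76-fold, with a log2 fold change of -1.47 (SE 0.261, adjusted p = 0.0034, edgeR). It was called in each of the 12 alternative fits that could test it, from -1.66 to -1.27. Of the 10 hepatocyte markers, 9 were tested, and all 9 had a log2 fold change below 0 (median -0.67). Of these, 1, APOB, was called lower in edgeR, which is 11.1% beside 12.4% of all genes. By the criteria of the study, 2 of the 9 were lower, APOB and APOA2, beside 5.88% of all genes. The summed level of the 10 markers was 4.66, 10.28 and 11.47 FPKM in control cells and 4.73, 5.13 and 3.79 FPKM in knockdown cells. Control replicate 1, the lowest control sample for SERPINA1, was also the lowest control sample for these markers, and its marker sum was close to that of knockdown replicate 1, although SERPINA1 stood at 3.15 and 1.65 CPM in these samples. Knockdown replicate 3 had the lowest marker sum but the highest SERPINA1 level of the knockdown samples. The single markers differed in this respect. Among knockdown samples, APOA1 (0, 0.0596 and 1.971 CPM) and APOA2 (0.2423, 0.4023 and 1.5 CPM) were highest in replicate 3. ALB (8.365, 9.462 and 1.971 CPM), TF, FGA, FGB, AMBP and TTR were lowest there. APOB lay between, and HP had 0, 0 and 2 counts. The part of this list in the result for SERPINA1 was not tested.

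Apart from SERPINA1, the clade A genes had few counts. SERPINA3, which encodes antichymotrypsin, had 27, 32 and 30 counts in control cells and 0, 11 and 41 in knockdown cells (log2 fold change -0.92, SE 0.948, adjusted p = 0.55, edgeR). The knockdown samples thus spanned the control values, and the log2 fold change of SERPINA3 was -0.34 without knockdown replicate 1, -2.52 without knockdown replicate 3 and -1.69 with the replicate block, none of them called. SERPINA5, the protein C inhibitor, had 0 to 24 counts in each sample (log2 fold change -0.27, SE 1.01, adjusted p = 0.89, edgeR). Both overlap AL049839 on the same strand, between which and the serpins reads could have been split, and which had 0 to 16 counts. The hormone carriers SERPINA6 and SERPINA7, SERPINA10 and SERPINA12 were not tested, and none of them had more than 15 counts in a sample.

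Clades C, D, F and G hold plasma inhibitors of coagulation, fibrinolysis and complement, and also SERPINF1, which inhibits no protease. Of 5 genes, 4 were tested and 0 were called at an adjusted p below 0.05 in edgeR, beside 22.8% of all genes tested. DESeq2 called 0 of them as well, where it called 2076 genes higher and 2342 lower of 15558. At an unadjusted p below 0.05 in edgeR 0 were called, so 0 met the criteria of the study, beside 9.61% higher and 5.88% lower of all genes. SERPINF1, which encodes the pigment epithelium-derived factor, had 1.81 ± 0.429 CPM in control cells and 1.899 ± 0.157 CPM in knockdown cells (SD, n = 3). SERPINF2, or alpha-2-antiplasmin, which inhibits plasmin, had 1.41 ± 0.473 and 1.77 ± 0.399 CPM. SERPING1, the C1 inhibitor, had 2.46 ± 0.533 and 2.15 ± 0.512 CPM. SERPIND1, or heparin cofactor II, had 0.844 ± 0.202 and 0.786 ± 0.178 CPM and lies within PI4KA on the opposite strand. The groups overlapped for each of these 4 genes, and their standard errors ran from 0.227 to 0.330 on the log2 scale. SERPINC1, the antithrombin gene, had 0 to 9 counts and was not tested. Of clade I, the neuroserpin gene SERPINI1 had 25 to 76 counts and a log2 fold change of 0.22 (SE 0.418, adjusted p = 0.77, edgeR), and SERPINI2 had no count in 5 samples. In all, 8 members were not tested, and their highest count in any sample was 22.

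Several members stand in tandem clusters, here runs of at least 3 serpin genes with less than 500 kb between neighbours. The cluster on chromosome 18 (63476958 to 64019779) holds SERPINB5, SERPINB4, SERPINB11, SERPINB3, SERPINB7 and SERPINB8. Of its 5 tested serpins 3 fell, beside 12.4% of all genes. The scarce SERPINB7, which was not called, lies between SERPINB3 and SERPINB8, and SERPINB5 at the edge of the cluster was not called either. Of the 4 tested genes within 200 kb that are not serpins of the rule, 1 was called, KDSR, which encodes an enzyme of sphingolipid synthesis (log2 fold change -0.30, SE 0.0372, adjusted p = 0.00057, edgeR). The cluster on chromosome 6 (2832332 to 2971777) holds SERPINB1, SERPINB9 and SERPINB6, and its 2 tested serpins moved in opposite directions. Of 13 tested neighbours there, 2 rose (LINC01011 and RIPK1) and 1 fell (WRNIP1), where 22.8% of all genes were called in either direction. The cluster on chromosome 14 (94280460 to 94624055) holds 6 clade A genes, of which 3 were tested and only SERPINA1 was called. Of 7 tested neighbours 1 rose, IFI27L2 (log2 fold change 0.67, SE 0.198, adjusted p = 0.036, edgeR). The neighbours were named after their values were seen.

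**Figure D4:**
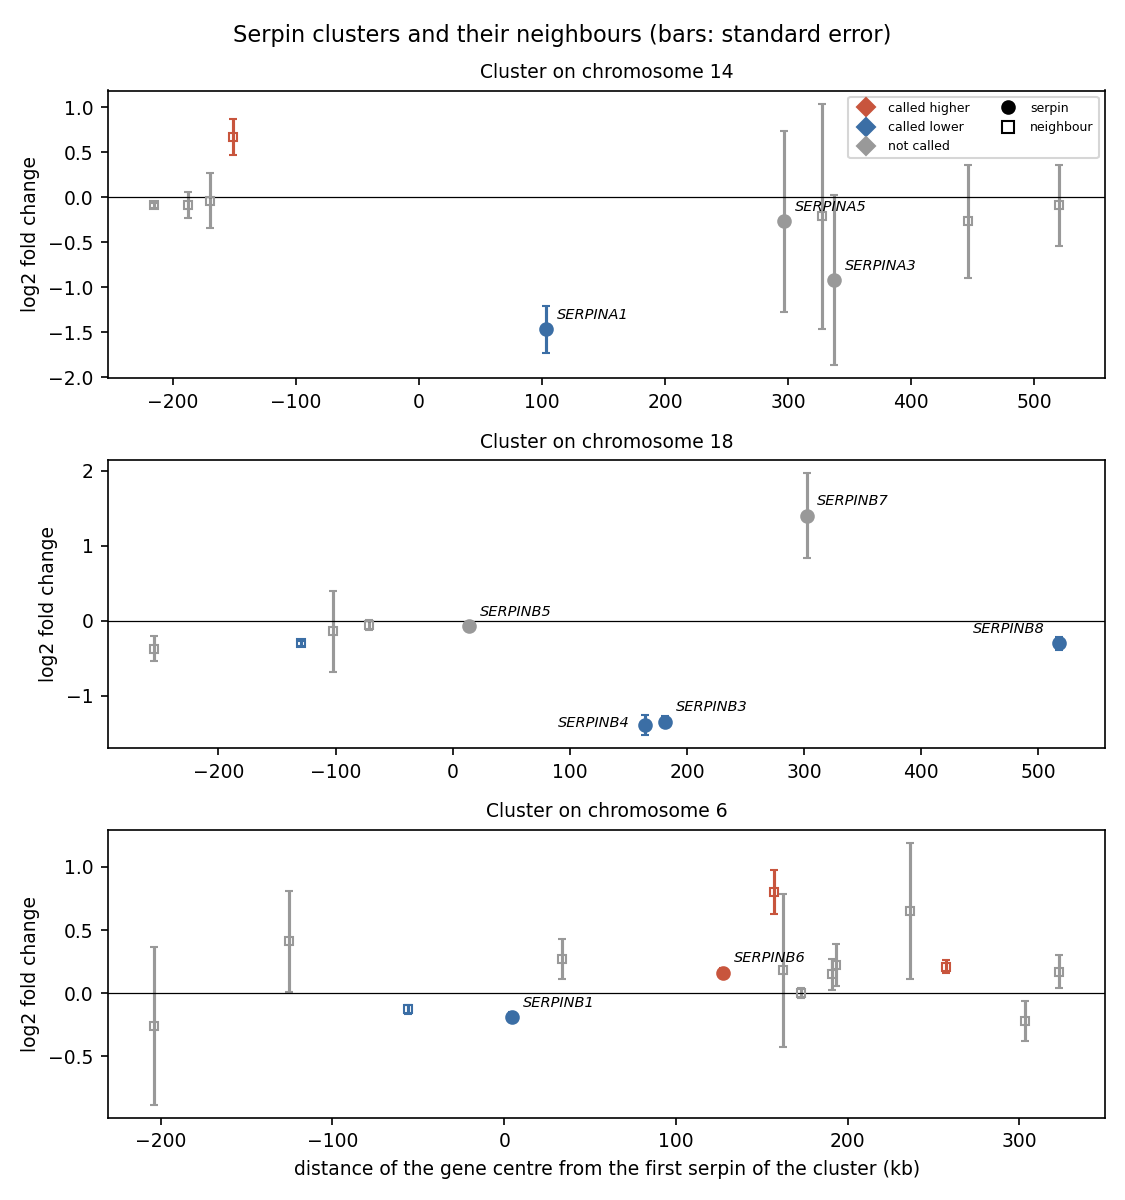
Log2 fold change (with the SE as bars) of the tested serpin genes (filled circles) and neighbouring genes (open squares) against the distance in kb from the first serpin of each cluster. SERPINB3 (-1.34) and SERPINB4 (-1.39) lie side by side at the bottom of the panel of chromosome 18, and SERPINB8 (-0.30) lies nearer to 0.

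The proteases that serpins inhibit were described from a list of 30, of which 26 were in the table and 18 were tested. Of these, 4 were called higher and 2 lower, and the median log2 fold change was -0.07, and 33.3% were called in either direction beside 22.8% of all genes. ST14, the membrane protease matriptase, rose by a log2 fold change of 0.79 (SE 0.121). F12, coagulation factor XII, rose by 0.64 (SE 0.123), and PLAT, the tissue plasminogen activator, rose by 0.56 (SE 0.173) from a low level of 0.41 to 0.63 FPKM. CTSL, or cathepsin L, a target of SERPINB3, was the most abundant of the list and rose from 34.8 to 47.0 FPKM (log2 fold change 0.39, SE 0.0478, adjusted p = 0.00054, edgeR). The 2 that fell were the complement proteases C1R (-0.28) and C1S (-0.24), targets of SERPING1, and they were named after their values were seen, as was PLAU. PLAU, the gene of urokinase, which SERPINE2 inhibits, had 4.91 FPKM in control cells and 6.40 FPKM in knockdown cells, with overlapping groups (log2 fold change 0.33, SE 0.125, adjusted p = 0.085, edgeR).

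Receptors that clear protease-serpin complexes, cofactors of serpins and the quality control of secreted glycoproteins made up a list of 22 genes. Of 21 tested, 3 were called higher and 9 lower, beside 10.4% and 12.4% of all genes, and the median log2 fold change was -0.10. LRP1, the endocytic receptor that removes complexes of serpins with their proteases, fell by a log2 fold change of 0.39 (SE 0.0433), from 10.4 to 8.21 FPKM. VLDLR, another receptor of this kind, rose by 0.31 (SE 0.0952), and the heparan sulfate proteoglycan SDC1 rose by 0.37 (SE 0.0407). HSPA5, the chaperone BiP, was the most abundant of the list and fell by 0.27 (SE 0.0343).

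Collagens and the enzymes that fold them, the partners of HSP47, were a list of 23 genes. Of 22 tested, 9 were called higher and 3 lower, beside 10.4% and 12.4% of all genes, and the median log2 fold change was 0.04. COL6A2 (1.01, SE 0.111), COL6A1 (0.86, SE 0.0544) and COL5A1 (0.41, SE 0.0321), which encode chains of collagens VI and V, rose on the log2 scale, and COL1A1 was among the genes called higher (0.20, SE 0.0337). P3H2, a prolyl hydroxylase, fell by 0.45 (SE 0.113). PPIB, the prolyl isomerase cyclophilin B, was the most abundant and fell by 0.21 (SE 0.0589).

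Protease inhibitors outside the serpin family were also listed. Of 30 listed, 29 were in the table and 24 were tested, of which 2 were called higher and 4 lower, or 25% beside 22.8% of all genes. A2M, the broad inhibitor alpha-2-macroglobulin, fell by a log2 fold change of 0.86 (SE 0.0743), from 6.59 to 3.76 FPKM. TFPI and TFPI2, inhibitors of the tissue factor pathway, fell by 0.27 (SE 0.0442) and 0.21 (SE 0.0667). SPINT1, an inhibitor of matriptase, rose by 0.27 (SE 0.0601). PEBP1, the most abundant, rose by 0.15 (SE 0.0396).

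The last list held 20 genes known to respond to the cytokine TGF-beta, and all of them were tested. Of these, 6 were called higher and 4 lower, beside 10.4% and 12.4% of all genes, and the median log2 fold change was 0.03. PMEPA1 (0.72, SE 0.0804), FN1 (0.65, SE 0.0614), SMAD7 (0.51, SE 0.114) and ID3 (0.50, SE 0.0561), the most abundant, rose on the log2 scale. TAGLN, which encodes transgelin, fell by 0.54 (SE 0.124).

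**Figure D5:**
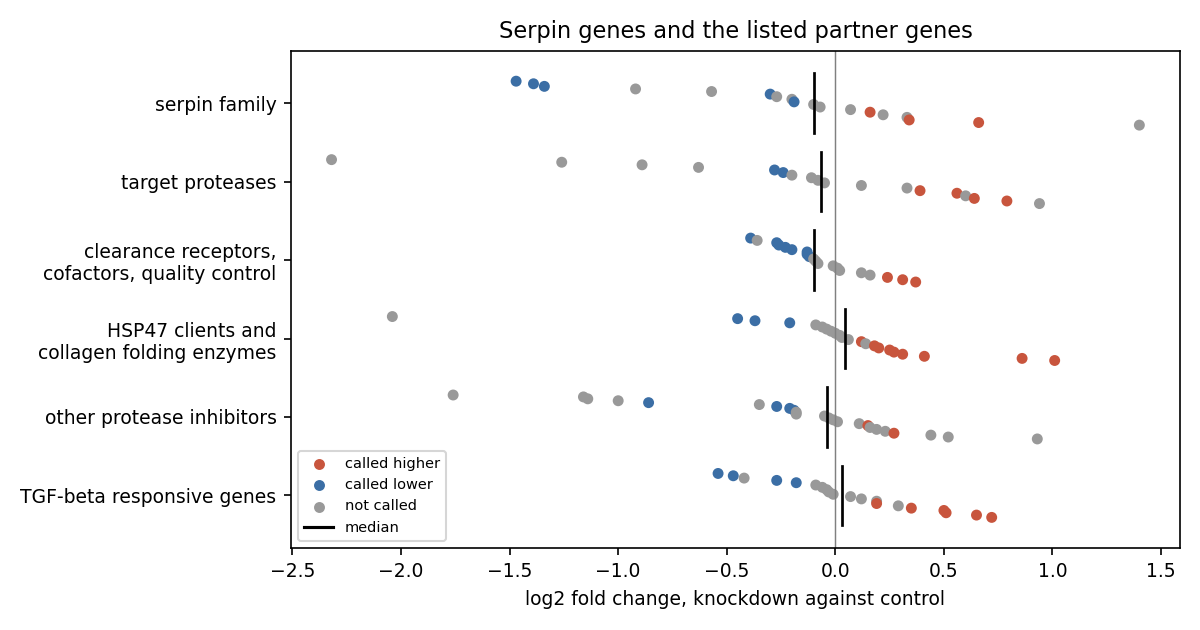
Log2 fold change of the tested serpin genes and of the 5 gene lists described in the text, 1 point a gene, coloured by the call at an adjusted p below 0.05, with the median over all tested genes of each row as a vertical line. The median of each row lies between -0.10 and 0.04.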

How the data were processed

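RNA from 3 control and 3 knockdown samples was sequenced and mapped by the authors with HISAT2 to GRCh38. The submitters' processing notes name cutadapt 1.9 and FastQC. The counting program, strand handling and annotation release are not given in the sources used here. The authors deposited raw counts per gene, without normalization, and FPKM values, scaled by them to gene length and library size. All 27 serpin genes overlapped their position in GENCODE release 29. After filterByExpr and TMM scaling, edgeR 4.0.16 (R 4.3.3) fitted the counts with a group term only by its quasi-likelihood functions glmQLFit and glmQLFTest. The standard error of a log2 fold change is its size over the root of the F statistic. The fit was tested on simulated data. CPM values used the TMM-scaled library sizes. FPKM served to compare levels between genes.

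Alternatives were DESeq2 1.42.0, its size factors in edgeR, library size alone, genes unfiltered or kept from a mean count of 50 up, a replicate block, each sample left out, and limma-trend (limma 3.58.1) on log2(FPKM + 0.1) or log2(FPKM + 1) where the mean FPKM reached 1. The members and lists were chosen with earlier results of these data known. By rule, the text names ZNF706, each tested serpin, the markers, and of each list the most abundant gene and up to 4 called genes with the largest absolute log2 fold change. Some genes that fall under this rule are not reported here and are left out of the figures, and the counts and medians include them. No sample looked like a second copy of another, since the chi-square value per gene (mean count of at least 50) was 12.8 to 22.2 within groups. The depth was 62684076 to 69057423 counts a sample, and the standard errors hold the spread between samples as well as counting error.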

Additional observations from a re-analysis of the deposited data

How the results depend on the processing

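SERPINE2, SERPINH1, SERPINB3 and SERPINB4 kept their direction and their call in all 14 alternative fits, and SERPINA1 did in the 12 that could test it. The number of serpin genes called higher was 3 to 4 and the number called lower 4 to 5 over these fits, beside 4 and 5. SERPINB8 was also not called under library-size scaling (adjusted p = 0.069) or without a filter (0.056) in edgeR. Over all genes, 1906 were called higher and 2286 lower, and without a filter 1253 were higher, while with library size alone 2742 were higher and 1518 lower, and limma-trend on log2(FPKM + 0.1) gave 2279 and 1539. With each sample left out, 1148 to 1485 genes were higher and 1500 to 1939 lower, the lowest counts both without knockdown replicate 2. Members that were not called changed sign in some fits. SERPINA5 had a log2 fold change of 0.23 with the replicate block and, with each sample left out, of -0.856 to 0.288 (the highest without control replicate 2). SERPIND1 ranged from -0.290 to 0.0603, above 0 without control replicate 2 (0.0267) and without knockdown replicate 3. SERPINF1 ranged from -0.0975 (without control replicate 1) to 0.246, and SERPINI1 from -0.0832 (without control replicate 3) to 0.489. The cause was not tested. The list of other protease inhibitors had 3 genes called without a filter, beside 6.

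The replicate numbers did not clearly pair the samples. The correlation of same-numbered deviations from the group means was 0.049, -0.001 and 0.092 for replicates 1, 2 and 3. Between samples of unlike number it ran from -0.078 to 0.032. Values this small cannot exclude a weak pairing. With the replicate block 4 serpins were higher and 5 lower. For the 8 members with too few counts to be tested, no change was estimated.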
